A study of Mus musculus with 12 samples.

Results

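Ogt encodes O-GlcNAc transferase, the enzyme that attaches single N-acetylglucosamine (GlcNAc) residues to serines and threonines of nuclear and cytosolic proteins. Its sugar donor, UDP-GlcNAc, is the end product of the hexosamine pathway, a branch of glucose metabolism that draws on glucose, glutamine, acetyl-CoA and UTP. The pathway is commonly described as a nutrient sensor, and in fat cells it has long been studied in connection with insulin action. In the pathway, Gfpt1 and Gfpt2 (glutamine-fructose-6-phosphate transaminases) carry out the first and rate-limiting step, Gnpnat1 acetylates the glucosamine 6-phosphate they form, Pgm3 moves the phosphate, and Uap1 joins the sugar to UDP. Nagk feeds the same route from salvage, by phosphorylating free GlcNAc.

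Among the 18217 genes named on the array, these 7 were represented by 11 of the 41174 non-control probes of the array, namely 2 probes for Ogt and 9 probes for the 6 enzymes, found through the RefSeq accession that the scanner files give for each probe. Where one of these genes had several probes they were numbered from the brightest to the dimmest, while probes of other genes are numbered in the order of their probe names. Ogt was chosen on a measured value, the shift of its RNA off polysomes in these same arrays, and the enzymes because they make or recover its substrate. The measure behind that choice is called the M-value here. It is the log2 change from 0 h to 6 h in polysomal RNA minus the same change in non-polysomal RNA, and it is given for Ogt as a description with no test. All 11 probes were well above background on each of the 12 arrays, except that Gfpt1 probe 3 was not on the non-polysomal 0 h array of replicate 3.

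The RNA came from 3T3-L1 cells, a mouse embryonic fibroblast line of preadipocytes that can be induced to become fat cells. Cells grown to confluence were harvested untreated (0 h) or after 6 h in medium with 0.5 mM isobutylmethylxanthine (IBMX, which raises cAMP), 1 µM dexamethasone (a glucocorticoid) and 5 µg/ml insulin. The induction medium held fetal bovine serum in place of the newborn bovine serum of the growth medium, so hormones, fresh serum and time cannot be told apart. Lysates were spun through sucrose gradients, and RNA was pooled from fractions 5 to 7 (non-polysomal) and from fractions 9 to 11 (polysomal, carrying several ribosomes per message). Each of the 4 groups (non-polysomal and polysomal, 0 h and 6 h) had 3 replicates, which the methods of the study call biological without saying how the cultures were kept apart. Replicate 1 of every group lay on 1 slide, replicate 2 on another and replicate 3 on the third.

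The arrays were alike in the share of probes detected and in their correlations within groups. Between 55.6% and 60.8% of probes were well above background on each array, and arrays of the same group correlated at 0.985 to 0.992, against 0.925 to 0.971 between groups. The signals were put on a common scale with 10 spike-in RNAs. Their mean log2 offset was −0.48 to −0.21 on the polysomal 6 h arrays and 0.05 to 0.18 on the other arrays. On the spike-in scale the median M-value over all probes was 0.49, not 0. Scaling each array to its 75th percentile instead lowered every M-value by 0.42 and every time effect by 0.27 on the log2 scale. It lowered every polysomal-minus-non-polysomal difference, averaged over both times, by 1.1. It also changed the share of called probes that lay above 0 from 88.9% to 55.0% for the M-value, from 72.5% to 49.0% for the time effect and from 80.8% to 31.1% for the fraction difference. Directions are therefore given below only where they hold on both scales, or with both values. All 8 preadipocyte and fibroblast marker genes were well above background on every array, and of 7 mature adipocyte genes 6 were, with Lep on none. Csf1r of the macrophage, Krt8 of the epithelial and Myod1 of the muscle markers also had probes well above background on every array, so this bar alone does not identify the cells. All 6 early hormone response genes rose on the spike-in scale. The smallest rise was that of Cebpd at 0.35, of which the 75th percentile scale takes 0.27. The cells are bulk cultures, in which fewer cells of a type and less RNA per cell cannot be told apart.

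The probes do not have their sequences in the files, so the genes are shown by the genomic sequence before their start. The stretches below, from RefSeq on build GRCm38.p6 and written 5′ to 3′ on the strand of the gene, are those of the enzymes with the steepest rise and of Ogt, which fell. All end before the annotated gene start, and capitals mark TGACG (the core of a cAMP response element), TGACTCA (an AP-1 site) or GGGCGG (a GC box), on either strand.

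Uap1, chr1:170174965-170175214, minus strand: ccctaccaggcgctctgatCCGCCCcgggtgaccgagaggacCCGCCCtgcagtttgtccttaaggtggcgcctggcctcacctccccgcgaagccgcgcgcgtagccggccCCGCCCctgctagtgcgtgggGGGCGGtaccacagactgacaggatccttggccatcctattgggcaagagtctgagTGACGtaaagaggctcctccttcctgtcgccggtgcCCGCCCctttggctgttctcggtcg
Gfpt2, chr11:49793905-49794154, plus strand: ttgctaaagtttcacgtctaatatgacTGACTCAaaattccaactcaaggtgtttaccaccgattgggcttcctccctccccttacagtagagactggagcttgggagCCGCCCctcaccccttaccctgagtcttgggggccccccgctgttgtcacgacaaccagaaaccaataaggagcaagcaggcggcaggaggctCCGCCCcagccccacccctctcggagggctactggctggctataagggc
Ogt, chrX:101639801-101640010, plus strand: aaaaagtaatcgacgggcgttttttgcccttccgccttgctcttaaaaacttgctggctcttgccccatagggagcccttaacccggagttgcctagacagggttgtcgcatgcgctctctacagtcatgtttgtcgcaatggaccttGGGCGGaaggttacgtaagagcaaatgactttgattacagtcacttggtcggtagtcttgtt

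Of the 7 genes, 6 had an entry in the RefSeq promoter table, with 2 start sites for Ogt. Within the 250 bases before each start, GGGCGG was found in all 7 entries, once in each Ogt entry and in Nagk, 2 times in Gfpt2, 4 times in Gfpt1 and 5 times each in Pgm3 and Uap1, while 32.7% of all 32851 windows of that length held it. TGACG was found among the members only before Uap1, from position −61 relative to the start, and in 17.8% of all windows. TGACTCA was found only before Gfpt2, from position −223, and in 4.46% of all windows. The complete palindrome TGACGTCA was in none of the 7 entries and in 1.55% of all windows. TGACG lies within TGACGTCA, the motifs were picked with the sequences in view, and the matches describe only the letters of the windows. The 250-base window of Ogt runs 40 bases past the stretch printed, into the annotated gene.

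Ogt probe 1 had log2 signals of 7.26, 7.26 and 7.31 in the non-polysomal RNA at 0 h and 7.00, 6.95 and 7.00 at 6 h. In polysomal RNA it had 7.77, 7.98 and 8.0 at 0 h and 5.40, 5.38 and 5.83 at 6 h. On this spike-in scale the polysomal 6 h arrays were the lowest 3 and the polysomal 0 h arrays the highest 3, and none of the 4 groups overlapped. On the 75th percentile scale the polysomal 6 h arrays were again the lowest 3, at 4.63 to 4.96. There the non-polysomal 0 h arrays were the highest, at 7.78 to 7.94 against 7.58 to 7.67 in polysomal RNA at 0 h. The polysomal signal fell by 2.38 on the log2 scale, or 5.21-fold, and the non-polysomal signal fell by 0.29, or 1.22-fold. The M-value of −2.09 was −2.11, −2.30 and −1.86 within slides 1, 2 and 3.

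Ogt probe 2, the dimmer one, read 5.99, 5.97 and 5.85 in non-polysomal RNA at 0 h and 5.62, 5.75 and 5.61 at 6 h. Its polysomal values were 6.28, 6.79 and 6.54 at 0 h and 5.70, 5.58 and 5.70 at 6 h. On the spike-in scale the polysomal 0 h arrays were here too the highest, but the polysomal and non-polysomal 6 h arrays overlapped, with means of 5.66 in both. On the 75th percentile scale the non-polysomal 0 h arrays were the highest, at 6.48 to 6.58 against 6.09 to 6.40 in polysomal RNA at 0 h. The fractions at 6 h lay apart there, with polysomal arrays at 4.84 to 4.93 and non-polysomal arrays at 6.10 to 6.30. The polysomal signal fell by 0.88, or 1.84-fold, and the non-polysomal signal by 0.28, so that the M-value was −0.60, with −0.21, −0.997 and −0.60 within the slides.

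**Figure D1:**
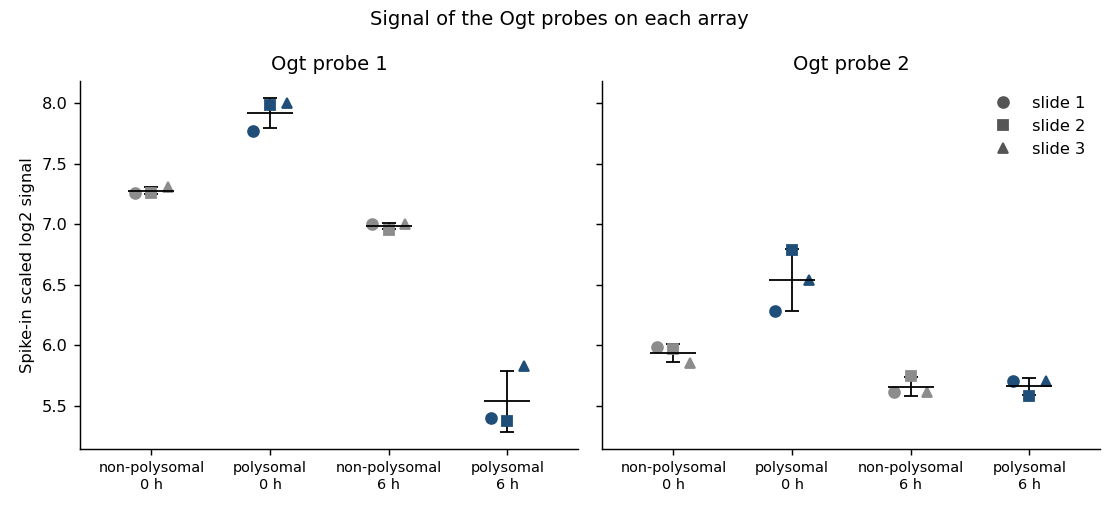
Spike-in scaled log2 signal (vertical axis) of both Ogt probes in the 4 groups, with 1 point per array, its shape giving the slide, and black bars for the mean ± SD of 3 arrays. The polysomal 6 h arrays of probe 1 sit between 5.38 and 5.83, below all its other arrays, while for probe 2 they overlap the non-polysomal 6 h arrays.

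Both Ogt probes carry the same RefSeq accession, yet they gave different M-values. Within each slide probe 1 was the lower of the pair, and the difference between their M-values was −1.49 ± 0.36 (SD, n = 3 slides), from −1.91 to −1.26. Both are read on the same arrays, so no constant shift of a whole array on the log2 scale can change that difference, though other corrections can. The probes differed in polysomal RNA at 6 h: their non-polysomal changes were −0.29 and −0.28, and their polysomal excesses at 0 h were 0.64 and 0.60, but at 6 h the excess was −1.45 for probe 1 and 0.00 for probe 2. The 75th percentile scale lowers the excess of every probe by 0.89 at 0 h and by 1.31 at 6 h, and on it both probes were lower in polysomal RNA already at 0 h. The next lowest M-values among the members were −0.12 for Gfpt1 probe 3 and −0.07 for Nagk.

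The size of the Ogt shift rested on the scaling and the background correction. For probe 1 it was −2.51 on the 75th percentile scale, and −1.26 when a straight line was drawn through the spike-ins. For probe 2 it was −1.02 and 0.27 under the same 2 settings, so the direction of probe 2 turned. With the normexp background model fitted without spots of non-uniform background the values were −1.08 and −0.12, while a fit on all spots, in which the estimated background of 3 arrays fell to between −946 and −213 intensity units, turned both (1.14 and 2.28). Those arrays were replicate 1 of the non-polysomal 0 h group and replicates 2 and 3 of the polysomal 6 h group.

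Averaged over both fractions, Ogt fell over the 6 h. This average takes in the same polysomal 6 h arrays that entered the M-value used for the choice. Its p-values are therefore no separate support for the Ogt shift. The polysomal fall made up most of it, at −2.38 against −0.29 in non-polysomal RNA for probe 1 and −0.88 against −0.28 for probe 2. The mean time effect was −1.34 ± 0.08 (SE) for probe 1, a 2.53-fold fall (limma, adjusted p = 2.92e-07), and −0.58 ± 0.08 for probe 2, a 1.49-fold fall (limma, adjusted p = 0.000189). Both were lower at 6 h within 3 of 3 slides, where they ranged from −1.45 to −1.24 and from −0.72 to −0.48. The time effects were −1.61 and −0.85 on the 75th percentile scale. Of all probes 16.1% were called down in this comparison and 42.5% up, and 5.52% were called down by more than 1 on the log2 scale, as Ogt probe 1 was.

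The enzymes that make UDP-GlcNAc went the other way over time. All 8 probes of the 5 synthesis genes Gfpt1, Gfpt2, Gnpnat1, Pgm3 and Uap1 rose, each by more than 1 on the log2 scale in the mean over fractions, where 11.7% of all probes were called with such a rise. Their rises on the 75th percentile scale were 0.79 to 4.5. The salvage kinase Nagk was the only enzyme that fell. The median time effect of the 9 enzyme probes was 1.42, against 0.29 over all probes. Within polysomal RNA alone 8 of the 9 enzyme probes rose and Nagk fell, with 50.7% of all probes called up and 11.7% down. The same counts held in non-polysomal RNA, where the background was 20.6% up and 19.6% down.

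Uap1, the last enzyme of the route, and Gfpt2 had the steepest rises among the members. Its non-polysomal log2 signals were 8.46, 8.44 and 8.42 at 0 h and 11.94, 11.82 and 11.79 at 6 h. Its polysomal signals were 8.15, 8.40 and 8.45 at 0 h and 14.43, 14.38 and 14.57 at 6 h. At 6 h the polysomal arrays were the highest 3 on both scales, while at 0 h the fractions overlapped on the spike-in scale and the polysomal arrays were the lowest 3 on the 75th percentile scale. The polysomal signal rose 70.0-fold and the non-polysomal signal 10.6-fold. The mean time effect was 4.77 ± 0.07 (SE), a 27.3-fold rise (limma, adjusted p = 3.13e-11).

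Uap1 also gained on polysomes beyond its general rise. Its M-value was 2.72 (95% interval 2.42 to 3.01; limma, adjusted p = 1.45e-06), a 6.57-fold change in the polysomal to non-polysomal ratio, and it was 2.81, 2.60 and 2.74 within the slides. It was 2.29 on the 75th percentile scale. At 0 h the polysomal minus non-polysomal difference was −0.11 (95% interval −0.32 to 0.11), and at 6 h it was 2.61 on the spike-in scale, against −0.99 and 1.30 on the 75th percentile scale. On the same arrays the M-value of Ogt probe 1 minus that of Uap1 was −4.81 ± 0.18 (SD, n = 3 slides). For Ogt probe 2 minus Uap1 it was −3.32 ± 0.29.

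Gfpt2 is one of the pair of transaminases that open the pathway. It read 3.87, 5.24 and 4.47 in non-polysomal RNA at 0 h and 8.40, 8.47 and 8.27 at 6 h. In polysomal RNA it read 5.79, 5.77 and 5.47 at 0 h and 11.12, 11.06 and 11.18 at 6 h. The non-polysomal 0 h arrays were the most scattered, and the fractions at 0 h lay apart on the spike-in scale but overlapped on the 75th percentile scale, where the polysomal minus non-polysomal difference was 0.26 in place of 1.15. At 6 h the polysomal arrays were the highest on both scales. Gfpt2 rose 14.5-fold in non-polysomal RNA, where Uap1 rose 10.6-fold, and 43.6-fold in polysomal RNA, where Uap1 rose 70.0-fold. The mean time effect was 4.65 ± 0.19 (SE), a 25.1-fold rise (limma, adjusted p = 1.51e-08), and it differed from that of Uap1 by −0.12 ± 0.26 (SD, n = 3 slides), from −0.42 to 0.05. Its size rested on the processing: over the alternative fits it ranged from 2.76 to 4.85, and that of Uap1 from 4.20 to 4.95. The M-value of Gfpt2 was 1.59 (95% interval 0.73 to 2.46; limma, adjusted p = 0.00967), but it was 0.80 within slide 1 against 2.07 and 1.91 within the others. Without replicate 3 of all groups the M-value was 1.43 (adjusted p = 0.125), after quantile normalization 0.57 (adjusted p = 0.328) and with unscaled signals 1.09 (adjusted p = 0.0804).

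Gfpt1, the other transaminase, was read by 3 probes that rose together but less steeply. Probe 1 had 10.07, 10.11 and 10.04 in non-polysomal RNA at 0 h and 11.52, 11.45 and 11.44 at 6 h, and 11.74, 11.99 and 11.92 in polysomal RNA at 0 h and 13.28, 13.28 and 13.40 at 6 h. Its fractions lay apart by 1.81 at 0 h and 1.85 at 6 h on the spike-in scale, and by 0.92 and 0.54 on the 75th percentile scale. The time effects of probes 1, 2 and 3 were 1.42, 1.07 and 1.26 (2.67-fold, 2.10-fold and 2.39-fold), the highest adjusted p being 3.36e-05 (limma). None of the 3 passed the test for the M-value on the spike-in scale: it was 0.04 (95% interval −0.21 to 0.30), 0.47 (0.09 to 0.85; limma, adjusted p = 0.0553) and −0.12 (−0.77 to 0.54). Probe 1 was called below 0 on the 75th percentile scale (−0.38, adjusted p = 0.000843). On the spike-in scale Gfpt2 thus rose 25.1-fold where Gfpt1 rose at most 2.67-fold. Over the alternative fits the time effect of Gfpt2 was at lowest 2.76, and that of Gfpt1 probe 1 at highest 1.59. In M-value Gfpt1 probe 1 lay below Gfpt2 by −1.55 ± 0.75 (SD, n = 3 slides).

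Gnpnat1, the acetyltransferase, rose from 7.86, 7.66 and 7.72 to 9.45, 9.32 and 9.37 in non-polysomal RNA. In polysomal RNA it rose from 7.97, 8.21 and 8.19 to 10.32, 10.29 and 10.51. The polysomal minus non-polysomal difference was 0.37 at 0 h and 0.99 at 6 h on the spike-in scale, and −0.51 and −0.32 on the 75th percentile scale. The time effect was 1.94 ± 0.07 (SE), or 3.84-fold (limma, adjusted p = 5.30e-09). The M-value of 0.62 (95% interval 0.31 to 0.93; limma, adjusted p = 0.00596) was close to the 0.49 of all probes, fell to 0.20 on the 75th percentile scale (adjusted p = 0.197), and lost its call without replicate 1 (0.54, adjusted p = 0.0569) or without replicate 3 (0.60, adjusted p = 0.0865).

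Pgm3, the mutase, was read by 2 probes. Probe 1 had 7.12, 7.33 and 7.17 in non-polysomal RNA at 0 h and 8.82, 8.81 and 8.79 at 6 h, with 10.39, 10.71 and 10.64 in polysomal RNA at 0 h and 12.14, 12.15 and 12.30 at 6 h. It was the member probe most enriched on polysomes, by 3.37 at 0 h and 3.39 at 6 h on the spike-in scale and by a mean of 2.28 on the 75th percentile scale. The other probe of the gene, probe 2, was far dimmer. In non-polysomal RNA it read at most 3.88 at 0 h and 4.41 to 4.55 at 6 h. In polysomal RNA it read 4.87 to 5.09 at 0 h and 6.47 to 6.58 at 6 h. Probe 2 was enriched less, by 1.29 at 0 h and 2.04 at 6 h on the spike-in scale. On the 75th percentile scale probe 2 was enriched by 0.40 and 0.73. Both probes rose, with time effects of 1.61 (3.05-fold; limma, adjusted p = 2.01e-08) and 1.16 (2.23-fold; limma, adjusted p = 1.58e-07). They parted in the M-value, which was 0.02 (95% interval −0.29 to 0.33) for probe 1 and 0.75 (0.45 to 1.05; limma, adjusted p = 0.00181) for probe 2. The M-value that was called was thus that of the dimmer probe. The value of probe 2 was 0.33 on the 75th percentile scale (adjusted p = 0.0374), and it lost its call after quantile normalization (0.13, adjusted p = 0.438) and with unscaled signals (0.25, adjusted p = 0.400). Probe 1 lay below probe 2 by −0.73 ± 0.16 (SD, n = 3 slides), from −0.92 to −0.60. No constant shift of a whole array on the log2 scale can alter that difference, though quantile normalization can.

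Nagk, the salvage kinase, read 11.48, 11.58 and 11.48 in non-polysomal RNA at 0 h and 11.19, 11.11 and 11.00 at 6 h. In polysomal RNA it read 12.21, 12.42 and 12.34 at 0 h and 11.86, 11.78 and 11.92 at 6 h. Every 6 h array lay below the 0 h arrays of its fraction. The time effect was −0.44 ± 0.06 (SE), a 1.36-fold fall (limma, adjusted p = 9.09e-05), and −0.72 on the 75th percentile scale. The M-value was −0.07 (95% interval −0.33 to 0.20; limma, adjusted p = 0.673).

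**Figure D2:**
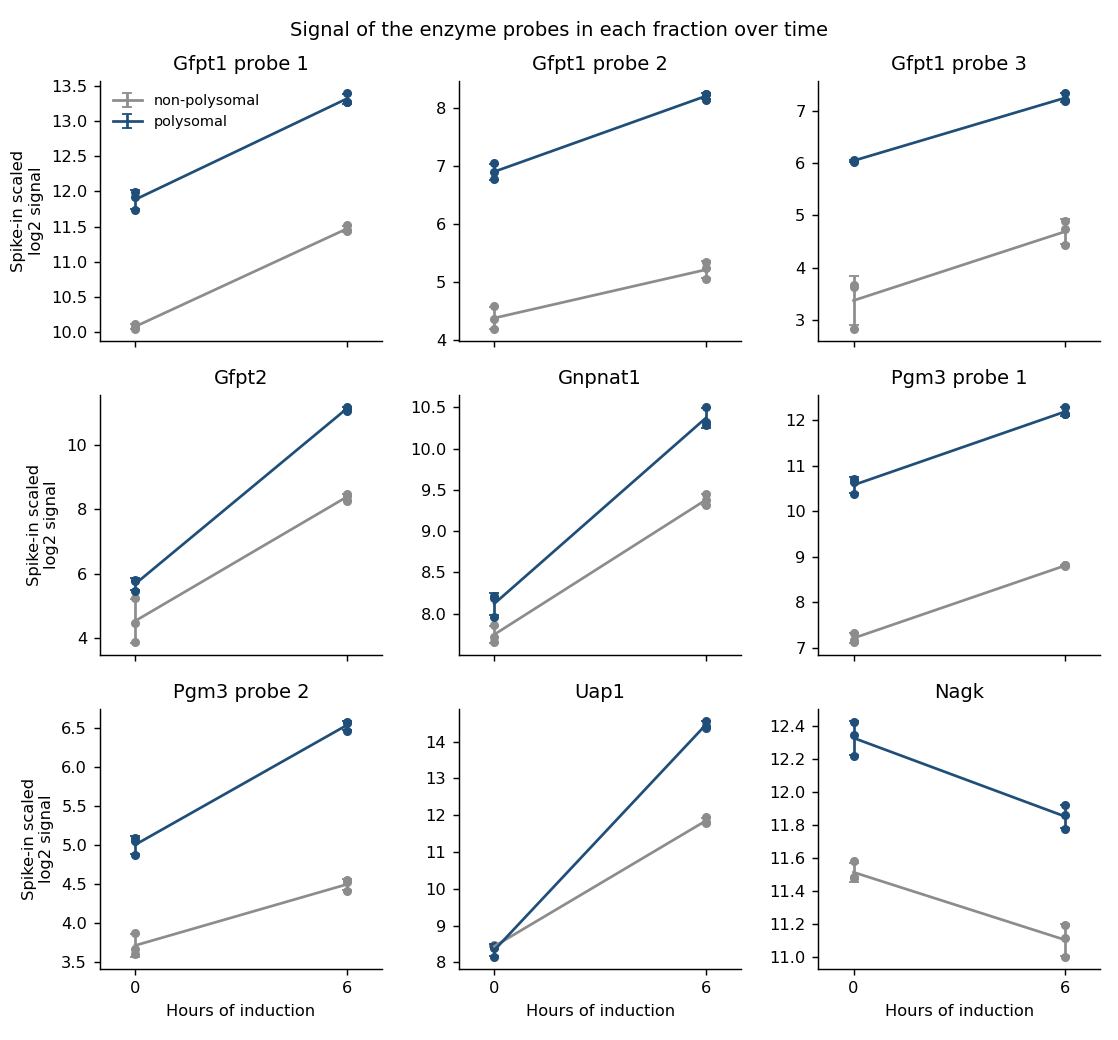
Spike-in scaled log2 signal (vertical axes, each panel with its own range) of the 9 enzyme probes at 0 h and 6 h of induction, with points for single arrays and lines joining the means, bars giving the SD of 3 arrays in each fraction. The lines of Uap1 start together near 8.4 and end at 11.8 (non-polysomal) and 14.5 (polysomal), those of Gfpt1 probe 1 and Pgm3 probe 1 run side by side, and both lines of Nagk fall.

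Counted together, 4 of the 9 enzyme probes (Gfpt2, Gnpnat1, Pgm3 probe 2 and Uap1) were called above 0 in M-value and none below it, where 32% of all probes were called above 0 and 4.01% below. In the unadjusted test at 0.05 the count below 0 was also 0. The median M-value of the 9 was 0.47, next to 0.49 for all probes. Of the 9, 2 (Gfpt2 and Uap1) exceeded 1, as 12.1% of all probes did, and none lay under −1, as 1.32% of all probes did. On the 75th percentile scale 3 enzyme probes were called above 0 (Gfpt2, Pgm3 probe 2 and Uap1) and 3 below it (Gfpt1 probe 1, Pgm3 probe 1 and Nagk).

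**Figure D3:**
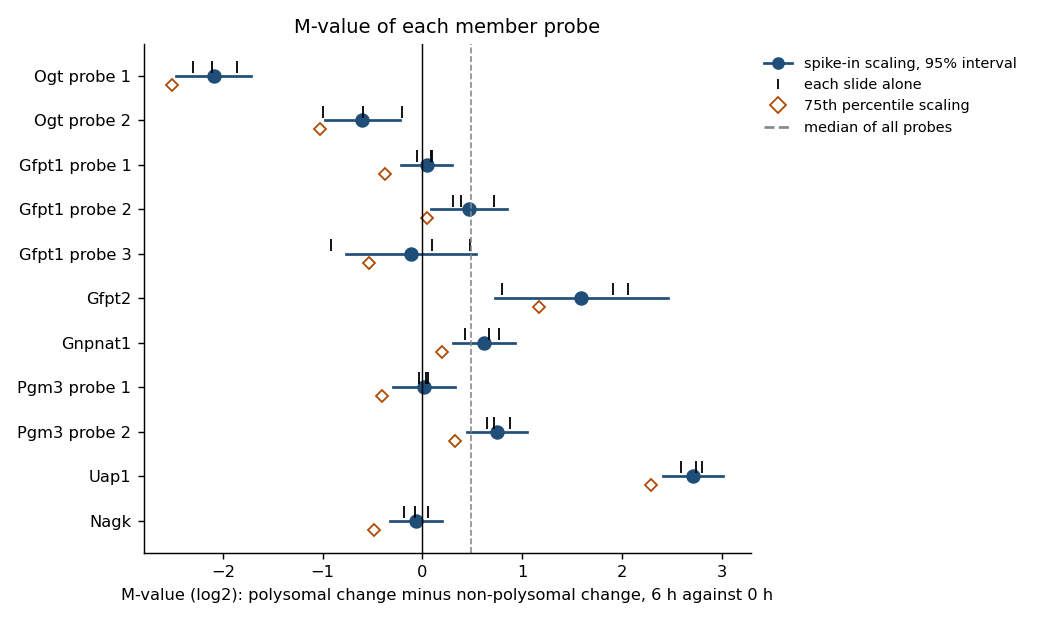
M-value of each of the 11 probes (horizontal axis, log2), with filled points and lines for the spike-in scaled estimate and its 95% interval, ticks for each slide alone, open diamonds for the 75th percentile scale and a dashed line at the median of all probes, 0.49. Uap1 at 2.72 and Ogt probe 1 at −2.09 stand farthest from the dashed line on each side.

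The difference between fractions averaged over both times was above 0 for all 9 enzyme probes, from 0.68 for Gnpnat1 to 3.38 for Pgm3 probe 1, and all 9 were called, where 55.6% of all probes were called above 0 and 13.2% below. Ogt probe 1 was called below 0 at −0.40 (limma, adjusted p = 0.00168) and Ogt probe 2 above 0 at 0.30 (limma, adjusted p = 0.00983). Both Ogt values take in the polysomal 6 h arrays behind the choice of Ogt, so they are no separate support for its shift. On the 75th percentile scale the difference turned for Gnpnat1 (−0.42), Nagk (−0.32) and Ogt probe 2 (−0.80), and was 0.15 for Uap1. The order of the probes in this measure is the same on both scales, with Pgm3 probe 1 and Gfpt1 probes 2 and 3 highest and the Ogt probes lowest.

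The neighbouring steps of the pathway were followed on a list of 40 genes, of which 39 were on the array with 63 probes. Of these, 37 (58.7%) were called up over time and 9 (14.3%) down, where 42.5% and 16.1% of all probes were. In M-value 28 (44.4%) were called above 0 and none below on the spike-in scale, where 32% and 4.01% of all probes were, and 17 and 10 on the 75th percentile scale. The enzymes that return amino sugars to glycolysis or degrade GlcNAc conjugates made up 5 single-probe genes. Amdhd2, the GlcNAc 6-phosphate deacetylase, fell with a time effect of −1.20, Gnpda1 and Gnpda2, the glucosamine 6-phosphate deaminases, with −0.72 and −1.26, and Renbp, an enzyme of GlcNAc and N-acetylmannosamine interconversion, with −1.02. All 4 were also called down under each of the 5 other scalings or value sets tried, and they run against the direction of the synthesis enzymes. Hexa, which encodes a lysosomal enzyme subunit, had a time effect of 0.14 on the spike-in scale and of −0.13 on the 75th percentile scale.

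In M-value all 5 of these genes were called above 0 on the spike-in scale, with a median of 0.96, and 4 of 5 on the 75th percentile scale. After quantile normalization 1 of the 5 was called above 0 and 2 had values above 0, and with unscaled signals 1 was called. On the spike-in scale the non-polysomal signal of the 4 that fell dropped further than their polysomal signal: Amdhd2 went from 12.83 to 10.98 in non-polysomal RNA and from 14.85 to 14.31 in polysomal RNA (means of 3 arrays), giving an M-value of 1.30 (limma, adjusted p = 4.91e-05). For Amdhd2 the value after quantile normalization was 0.15 (adjusted p = 0.186).

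The genes that supply glucose, glutamine and fructose 6-phosphate had 12 probes of 6 genes, of which 6 (50.0%) were called up over time and 1 (8.33%) down, and 4 (33.3%) above 0 in M-value, shares close to those of all probes for the rise and the M-value. Hk2, a hexokinase, rose with a time effect of 4.54, the glutamine synthetase Glul with 4.12 and 3.27 for its 2 probes, and the glucose transporter Slc2a1 with 1.43. Of the 6 probes of Hk1, another hexokinase, 1 fell (−0.94, limma, adjusted p = 2.18e-05), 1 rose (0.28, adjusted p = 0.00594) and 4 were not called. Hk1, Hk2 and Slc2a1 are named here after their values were seen. Gpi1, the isomerase that makes fructose 6-phosphate, had a time effect of 0.14 (adjusted p = 0.0518) and an M-value of 2.05 (limma, adjusted p = 2.38e-06). Glul probe 2 had an M-value of 1.71 (limma, adjusted p = 0.00133) while its brighter probe had 0.12.

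Oga, which removes O-GlcNAc and so opposes Ogt, was read by 4 probes. Its M-values lay between −0.09 and 0.29 and none was called on the spike-in scale, and its time effects lay between 0.07 and 0.47, with no direction given for these because the 75th percentile scale lowers each by 0.27. On the 75th percentile scale the 3 M-values that had been above 0 all turned below it (−0.22, −0.13 and −0.26 for probes 1, 2 and 4), and probe 4 was called (adjusted p = 0.0380). After quantile normalization probes 1, 2 and 4 were all called below 0, with adjusted p of 0.0146, 0.0466 and 0.000149. Eogt, which adds O-GlcNAc to secreted proteins and is the fifth probe of that list, had an M-value of 0.89. Other settings went the opposite way. When a line was regressed on the spike-ins, 4 of the 5 probes of the list were called above 0 and 0 below. The authors' log2 values gave 3 above and 0 below. Over all alternative fits the M-values of Oga probes 1, 2 and 4 ranged from −0.31 to 1.04, −0.22 to 1.18 and −0.61 to 0.62. Their direction therefore rested on the processing, and Oga probe 3 was never called.

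The users of UDP-GlcNAc in glycan synthesis had 20 probes of 14 genes, 15 of them (75%) called up over time and 1 (5.0%) down, with 10 (50.0%) called above 0 in M-value, where 42.5%, 16.1% and 32% of all probes were. Among them Mgat1, which starts the branching of N-glycans, had an M-value of 1.07 in its brighter probe. Uap1l1 was counted on this list although it is a relative of Uap1, and it had an M-value of 1.09. It was the probe called down over time, with a time effect of −0.55 (limma, adjusted p = 4.22e-05). Its polysomal change was −0.008 and its non-polysomal change −1.09. The 3 genes that make sialic acid after Gne had 4 probes, all called up over time and in M-value on the spike-in scale, and Cmas, which activates sialic acid, had 1.08. Partners and substrates of the transferase had 17 probes of 9 genes, of which 7 (41.2%) were called up over time and 3 (17.6%) down, with 4 (23.5%) above 0 in M-value, near or under the shares of all probes. Tet3, an enzyme of DNA demethylation that binds the transferase, had 1.21 in the one of its 3 probes that was called. On the 75th percentile scale the probes called up and down over time numbered 4 and 3 for supply, 8 and 3 for the users, 3 and 0 for sialic acid and 6 and 5 for the partners. In M-value the numbers above and below 0 were then 3 and 1, 5 and 5, 2 and 0, and 2 and 3. Of all probes 23.1% were then called up and 24.1% down over time, and 15.7% above and 12.8% below 0 in M-value. The 7 list probes with an M-value above 1 that are named here stayed above 0 in every setting tried, but each lost its call in at least 1 of them.

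**Figure D4:**
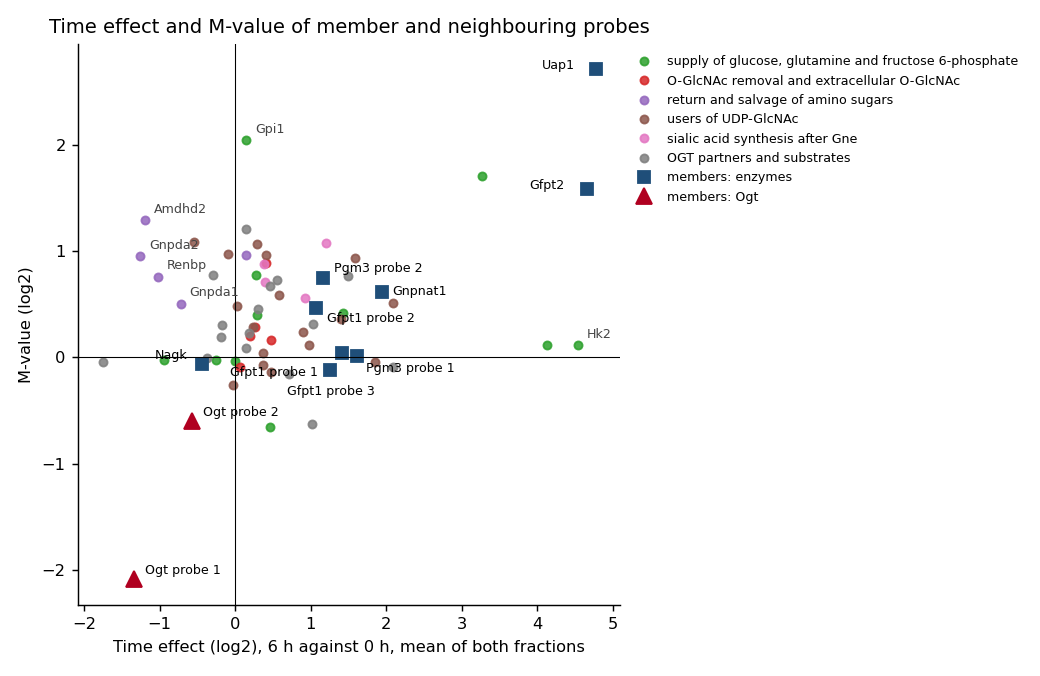
Time effect averaged over both fractions (horizontal axis, log2) against M-value (vertical axis, log2) on the spike-in scale for the 11 member probes and the 58 neighbouring probes well above background on all arrays of at least 1 group, with colours for the lists. Uap1 and Gfpt2 stand at the upper right, Ogt at the lower left and the return enzymes Amdhd2, Gnpda2, Renbp and Gnpda1 at the upper left.

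The 5 genes whose signal followed Ogt probe 1 most closely over the 12 arrays were Rfx7 (Pearson r = 0.97), Gab3 (0.97), E2f1 (0.96), Btbd35f1 (0.96) and Syt13 (0.95), out of 11720 named genes with detected probes. The arrays share their libraries' scaling and fall into 4 groups, so these values are descriptions. Spearman's rho for the 5 lay between 0.84 and 0.90. On the 75th percentile scale they ranked between 36 and 103 among the 11720 named genes. Ogt probe 2 had r = 0.74 with probe 1, while Uap1 had −0.92, Gfpt2 −0.87, Gnpnat1 −0.86 and Nagk 0.21.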

How the data were processed

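RNA from non-polysomal and polysomal gradient pools was hybridised in 1 colour to 12 Agilent arrays, and the authors deposited each array's Feature Extraction (version 10.7.1.1) output, in which the processed signal is a background-subtracted intensity. The authors also deposited a table of log2 values, which equals the log2 of the median signal averaged over spots plus 1 constant per array and served as an alternative. Spots marked as outliers were left out, spots of a probe were averaged on the log2 scale, and each array was shifted by the mean offset of 10 spike-in transcripts. Probes were named by RefSeq accession (26690 of 41174 probes).

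Group means were fitted with limma 3.58.1 (R 4.3.3) over all probes and all 12 arrays, without a replicate block, and p-values were adjusted by the Benjamini-Hochberg method over all probes. A probe was called at an adjusted p below 0.05. The fit was tested on simulated data. The named genes are all member probes, list genes with an M-value beyond 1 in size and an adjusted p below 0.05, Oga, and the 5 genes most like Ogt probe 1 by Pearson's r. Other list genes (Gnpda1, Gnpda2, Renbp, Hexa, Eogt, Hk1, Hk2 and Slc2a1) were named after their values were seen. The members and lists were chosen with earlier results of these data known. The lists cover supply, O-GlcNAc removal, return and salvage, users of UDP-GlcNAc, sialic acid, and partners, and 1 planned gene is not reported here. The alternatives were other scalings, background corrections, filters, the replicate number as a block, single slides, and leaving out arrays. The planned normexp correction used the median in place of the mean signal. For arrays the number of replicates limits the precision. Probe sequences and proteins were not analysed here.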

Additional observations from a re-analysis of the deposited data

Results flagged for a closer look

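Among the members, the change over time differed between the fractions for 4 enzyme probes, as tested by the M-value itself in limma: Uap1 at 2.72 (adjusted p = 1.45e-06), Gfpt2 at 1.59 (adjusted p = 0.00967), Pgm3 probe 2 at 0.75 (adjusted p = 0.00181) and Gnpnat1 at 0.62 (adjusted p = 0.00596). All 4 were above 0 within 3 of 3 slides. Pgm3 probe 2 is the dimmer probe of its gene, and the brighter one had an M-value of 0.02 and no call. Uap1 kept its call in every tested alternative except the normexp fit on all spots, in which 3 arrays had background estimates below −100. Gfpt2, Pgm3 probe 2 and Gnpnat1 also lost theirs after quantile normalization (0.57, 0.13 and 0.15) and with unscaled signals (1.09, 0.25 and 0.12).

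Among the neighbouring genes the same test picked out 7 probes with an M-value above 1: Gpi1 at 2.05 (adjusted p = 2.38e-06), Glul probe 2 at 1.71 (adjusted p = 0.00133), Amdhd2 at 1.30 (adjusted p = 4.91e-05), Tet3 probe 2 at 1.21 (adjusted p = 7.07e-05), Uap1l1 at 1.09 (adjusted p = 0.000185), Cmas at 1.08 (adjusted p = 0.000234) and Mgat1 probe 1 at 1.07 (adjusted p = 9.62e-05). All 7 lost the call in the normexp fit on all spots. Glul probe 2, Amdhd2 and Uap1l1 lost it after quantile normalization (0.82, 0.15 and 0.056), Mgat1 probe 1, Uap1l1 and Cmas with unscaled signals (0.57, 0.59 and 0.58), and Tet3 when the probes of a gene were averaged (0.72).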

How the results depend on the processing

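With 3 arrays per group the number of arrays limits the precision, and the M-value rests on how the polysomal 6 h arrays are scaled: in them the 5 spike-ins below a log2 signal of 18 read 0.83 lower than in the other groups and the 5 brighter ones 0.09 lower, which would add 0.95 or 0.05 to every M-value. The replicate number as a block gave the same counts for the members (8 time effects above 0 and 3 below, 4 enzyme M-values above 0) and changed no call of a member. Correlations of the deviations of same-numbered arrays were −0.10 to 0.42, with a mean of 0.09 and 5 of 18 above 0.1. Those of arrays with different numbers were −0.38 to 0.20, with a mean of −0.05 and 6 of 36 above 0.1. Same-numbered arrays share a slide and were more alike on average, but they are not shown to be paired. Keeping outlier spots, a trend in the prior variance and leaving out dim probes changed no count by over 1.5 times. The cause of the changes below was not tested.

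On the 75th percentile scale the M-value was −2.51 for Ogt probe 1, −1.02 for Ogt probe 2, −0.38 for Gfpt1 probe 1 and −0.40 for Pgm3 probe 1, with Oga probes 1, 2 and 4 at −0.22, −0.13 and −0.26. The fraction effect was −0.80 for Ogt probe 2, −0.42 for Gnpnat1 and −0.32 for Nagk, and the time effect −0.13 for Hexa. Called below 0 were 3 enzyme M-values and 4 member fraction effects, and of the neighbouring probes 17 were called above and 10 below 0 in M-value and 23 and 16 in time effect.

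After quantile normalization the M-values were −0.58 and −0.12 for Gfpt1 probes 1 and 2, −0.66 for Pgm3 probe 1 and −0.31, −0.22 and −0.61 for Oga probes 1, 2 and 4. The fraction effects were −0.44 for Ogt probe 2, −0.45 for Gnpnat1 and −0.26 for Nagk, and the time effect −0.64 for Hexa. In M-value 1 enzyme probe was called above and 3 below 0, 4 member fraction effects were below 0, and of the neighbouring probes 11 were above and 15 below 0 in M-value and 22 and 20 in time effect.

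With unscaled signals the M-values were −2.59 and −1.10 for the Ogt probes, −0.46 and −0.031 for Gfpt1 probes 1 and 2, −0.48 for Pgm3 probe 1 and −0.30, −0.21 and −0.33 for Oga probes 1, 2 and 4, and the time effect −0.092 for Hexa. Called were 1 enzyme probe above 0 in M-value and, of the neighbouring probes, 4 above and 2 below 0 in M-value and 19 above 0 in time effect.

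With a line regressed on the spike-ins the M-values were −1.26 and 0.27 for the Ogt probes, 0.68 for Gfpt1 probe 3, 0.29 for Nagk and 0.84 for Oga probe 3, with 8 enzyme and 57 neighbouring probes called above 0 and 0 member fraction effects below 0. With only the spike-ins below 18, a setting chosen after seeing the data, they were −1.64 and −0.15 for the Ogt probes, 0.34 for Gfpt1 probe 3, 0.39 for Nagk and 0.36 for Oga probe 3, with 8 enzyme and 46 neighbouring probes above 0 and 0 enzyme probes called below 0 in polysomal change.

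With the authors' log2 values the M-value was −1.44 for Ogt probe 1, 0.54 for Gfpt1 probe 3 and 0.18 for Oga probe 3, and with no background subtraction −1.46, 0.52 and 0.16, with −0.017 for Gfpt1 probe 1. Averaging a gene's probes gave −1.35 for Ogt, 0.13 for Gfpt1 and 0.14 for Oga in M-value and −0.051 for Ogt in fraction effect. In these 3 settings, 0 member fraction effects were called below 0.

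The normexp model fitted on all spots gave M-values of 1.14 and 2.28 for the Ogt probes, 2.76 for Gfpt1 probe 3 and 2.93 for Oga probe 3, polysomal changes of 0.28 and 1.22 for the Ogt probes, a time effect of 0.077 for Ogt probe 2, a fraction effect of 0.42 for Ogt probe 1, and non-polysomal changes of −0.91 and −0.86 for Gfpt1 probes 2 and 3 and −1.01 for Pgm3 probe 2. It called 0 enzyme M-values above 0, 4 member time effects and 4 fraction effects above and 0 below, 4 enzyme polysomal changes above and 0 below, 2 non-polysomal changes above and 0 below, and of the neighbouring probes 0 M-values above 0 and 5 time effects above and 4 below. Refitted after leaving out the spots whose background was not uniform (chosen after seeing the data), it gave −1.08 and −0.12 for the Ogt probes, a difference of −0.95 between them, −0.014 and 0.56 for Gfpt1 probes 1 and 3, 0.24 for Oga probe 3 and 0 member fraction effects below 0.

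Within single slides the M-value of Ogt probe 1 was −1.86 in slide 3, that of probe 2 was −0.997 in slide 2, and their difference was −1.91 in slide 1. When each array or each replicate number was left out, the M-value ranged from −2.24 to −1.99 for Ogt probe 1, from −0.80 to −0.40 for probe 2 and from −1.62 to −1.28 for their difference. Between 2 and 5 enzyme probes were called above 0 in M-value, with 2 without replicate 3, and 0 below. The neighbouring probes gave 17 to 28 calls above 0 in M-value, with 17 without replicate 1. The time effect was called above 0 for 8 member probes and below 0 for 3 in each of these fits, and the neighbouring probes gave 28 to 39 and 8 to 10. The fraction effect gave 9 to 10 members above and 0 to 1 below 0, with 0 without replicate 1. The enzyme probes gave 8 calls above and 1 below 0 in polysomal change, and 8 above and 0 to 1 below in non-polysomal change, with 0 without replicate 3. M-values near 0 changed sign, from −0.029 to 0.099 for Gfpt1 probe 1, −0.41 to 0.29 for Gfpt1 probe 3, −0.078 to 0.083 for Pgm3 probe 1 and −0.49 to 0.22 for Oga probe 3.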
